A study of Mus musculus with 12 samples.

Results

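Mitosis genes were followed in fluorescent cells sorted from mouse embryonic cortex by reporters of the interneuron lineages, through a list of 58 genes that act between the condensation of chromosomes and the separation of daughter cells. A gene entered when a probe set of the deposited table carried its symbol alone, and the probe set with the highest mean over the 12 arrays stood for it. Of the 58 listed genes, 56 were in the table (Sgol1 under its current symbol Sgo1), out of 11358 genes with a symbol of their own, while Ccnb1 and Gtse1 had no such probe set. A filter on dim values kept 51 of them among 8795 genes tested, and Plk1, Kntc1, Sgo1, Kif4 and Anln fell below it.

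RNA of sorted cells was hybridised to Affymetrix whole-genome mouse arrays, with 3 arrays for each of 4 groups. MGE cells, which arise in the medial ganglionic eminence, came from embryos carrying an Nkx2-1-Cre transgene and an R26R-YFP fl/fl reporter that Cre recombination turns on, and were taken at E18.5 and at E14.5. CGE cells came from embryos carrying Nkx2-1-Cre and the Dlx1-lox-Venus-lox reporter, in which Cre removes Venus, so that cells of the caudal and lateral eminences keep it, and were taken at E18.5 and at E16.5. All embryos therefore carried Nkx2-1-Cre. The YFP reporter labels every descendant of a cell that has expressed the Cre and the Venus reporter follows Dlx1, so neither gate is specific to postmitotic interneurons. Embryos were pooled before sorting, their number per array was not stated, and p-values measure only the spread between these arrays.

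Mitosis is prepared by a wave of transcription late in the cell cycle, when the kinase Cdk1 and its cyclins, the kinetochore, the spindle and the cytokinesis machinery are made together, and many of these transcripts and proteins are lost once the cell has divided. A repressor complex named DREAM holds many of these genes silent in resting cells through a short promoter element, the cell cycle genes homology region or CHR, and the activators B-Myb and Foxm1 act through the same element in dividing cells. Interneuron precursors divide in the ganglionic eminences and migrate to the cortex as postmitotic neurons, whereas oligodendrocyte precursors and other glial progenitors go on dividing outside the eminences.

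Promoter sequences from RefSeq (GRCm38.p6, 250 bases before to 50 after a start site) were at hand for 46 of the 56 genes. A CHR (TTTGAA or TTCGAA, on either strand) was present in 37 of these promoters (80.4%), against 13% of the promoters of genes tested and 19.2% of all 32851 promoters. A CCAAT box (CCAAT on either strand) was present in 36 (78.3%), against 39.4% and 37.4%. Both motifs together were found in 33 promoters (71.7%), against 5.59% and 7.52%. An E2F motif (TTTGGCGC or TTTCGCGC, on either strand) was found in 2 (4.35%), those of Cdk1 and Ncapd2, against 1.8% and 0.813%. Matching letters are a description of the sequence and do not show that a factor binds there. The 150 bases before the start site are printed below for 6 genes that hold the motifs and for Nusap1, which rose strongly and held neither, with CHR and CCAAT letters in capitals, read 5′ to 3′ on the strand of the gene. The windows are Mki67 at chr7:135716380-135716529 (minus strand), Top2a at chr11:99024190-99024339 (minus strand), Cdk1 at chr10:69352913-69353062 (minus strand), Cdc20 at chr4:118437344-118437493 (minus strand), Ube2c at chr2:164769779-164769928 (plus strand), Ckap2l at chr2:129297213-129297362 (minus strand) and Nusap1 at chr2:119618148-119618297 (plus strand).
Mki67: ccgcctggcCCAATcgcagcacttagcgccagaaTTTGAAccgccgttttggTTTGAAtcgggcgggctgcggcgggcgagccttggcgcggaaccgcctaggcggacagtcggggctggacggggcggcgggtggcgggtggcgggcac
Top2a: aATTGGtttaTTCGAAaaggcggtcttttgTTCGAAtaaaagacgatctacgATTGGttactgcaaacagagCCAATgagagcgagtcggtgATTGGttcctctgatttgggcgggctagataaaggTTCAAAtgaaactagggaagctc
Cdk1: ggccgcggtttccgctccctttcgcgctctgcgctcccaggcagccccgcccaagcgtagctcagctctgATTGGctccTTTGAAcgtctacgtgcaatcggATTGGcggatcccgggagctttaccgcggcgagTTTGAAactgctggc
Cdc20: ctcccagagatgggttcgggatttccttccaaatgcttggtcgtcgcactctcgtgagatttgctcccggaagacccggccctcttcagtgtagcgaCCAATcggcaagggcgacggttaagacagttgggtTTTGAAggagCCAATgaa
Ube2c: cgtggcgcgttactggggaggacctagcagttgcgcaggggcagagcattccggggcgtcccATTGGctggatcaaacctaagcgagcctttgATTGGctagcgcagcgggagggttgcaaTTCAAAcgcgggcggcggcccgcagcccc
Ckap2l: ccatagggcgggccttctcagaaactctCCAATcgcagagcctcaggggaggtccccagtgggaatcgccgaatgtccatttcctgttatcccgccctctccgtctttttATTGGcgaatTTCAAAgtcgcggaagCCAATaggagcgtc
Nusap1: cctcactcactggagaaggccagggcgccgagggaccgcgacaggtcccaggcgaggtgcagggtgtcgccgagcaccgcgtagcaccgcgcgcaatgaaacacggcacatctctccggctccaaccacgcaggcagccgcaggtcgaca
A CCAAT box and a CHR can share a letter where they adjoin. The CHR nearest to the start on its upstream side began 15 bases before it in Cdk1, 18 in Cdc20, 23 in Top2a, 29 in Ube2c and 30 in Ckap2l, and those of Mki67 shown here began 116 and 98 bases before it. Over the 46 genes, 33 (71.7%) had a CHR within 50 bases of the start, against 3.37% of the promoters of genes tested. Genes with a CHR had a median E18.5 minus E14.5 difference of 1.54 in MGE cells and genes without it, 9 in number, 2.07. In CGE cells the E18.5 minus E16.5 medians were 2.36 with and 2.49 without it, and these medians were not tested against each other.

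Most lineage markers followed the labels. Every GABAergic gene of a list of 5 (Gad1, Gad2, Dlx1, Dlx2, Dlx5) was above the filter level on all 12 arrays. Lhx6, which marks the MGE lineage, averaged 12.62 and 12.91 in the MGE groups of E18.5 and E14.5, against 10.65 and 10.77 in the CGE groups of E18.5 and E16.5. Sp8, a factor of CGE interneurons, averaged 4.54 and 4.31 in the same MGE groups, against 12.02 and 11.91 in the CGE groups. All 5 CGE genes of the list (Sp8, Prox1, Htr3a, Nr2f2, Adarb2) were lower in MGE cells at both pairings, but Htr3a and Nr2f2 were above the filter level in MGE cells too, and Prox1 averaged 9.02 in MGE cells at E18.5 and 4.55 at E14.5, against 11.57 and 11.85 in the CGE groups. Nkx2-1 itself had no usable probe set. All levels are deposited log2 intensities, and the level that a gene had to pass lay between 7.10 and 7.17 on the 12 arrays.

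Mitosis genes were high on E18.5 arrays of both lineages and low on most arrays of the earlier day. Averaged over the 56 genes, MGE cells read 8.24, 8.07 and 8.73 at E18.5, against 6.76, 6.91 and 6.64 at E14.5. CGE cells read 8.82, 10.18 and 9.08 at E18.5, against 8.08, 6.72 and 6.42 at E16.5. The E18.5 arrays lay above those of the earlier day in both lineages. Of the 56 genes, 39, 37 and 49 were above the filter level on the MGE E18.5 arrays, against 19, 20 and 17 on the MGE E14.5 arrays. On the CGE arrays the numbers were 52, 56 and 53 at E18.5, against 40, 19 and 17 at E16.5. A pair of CGE arrays stood apart from their own replicates: CGE E18.5 replicate 2 was the highest of its group for all 56 genes, and CGE E16.5 replicate 1 for 55 of 56, by a median of 1.25 and 1.44 over the mean of the other 2 arrays. MGE E18.5 replicate 3 was the highest of its group for 51 genes.

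**Figure D1:**
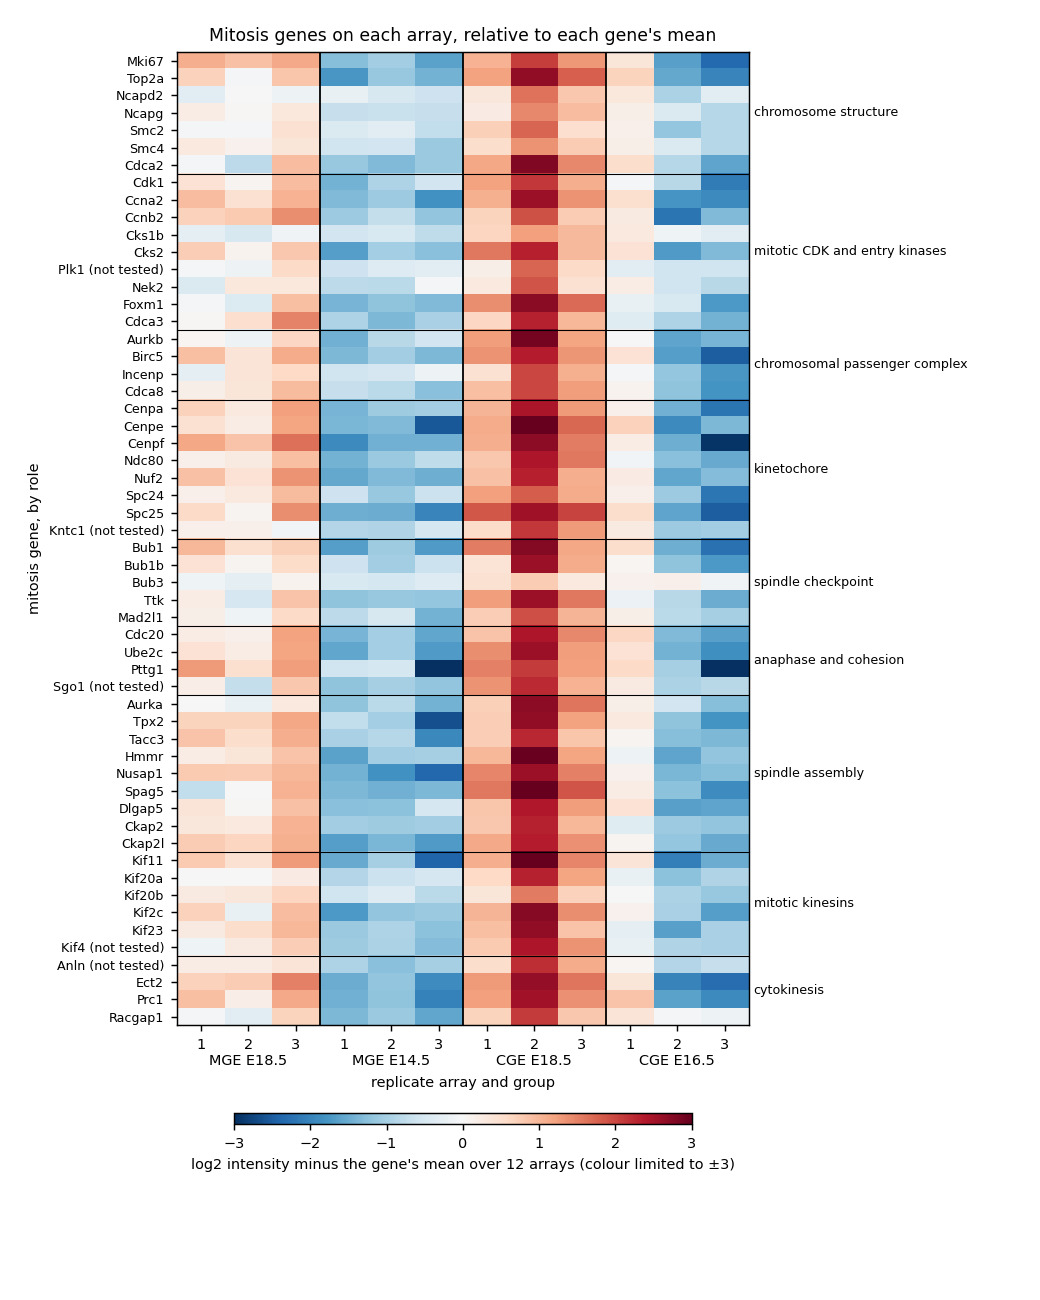
Each row is a mitosis gene, grouped by role, and each column an array, with MGE E18.5, MGE E14.5, CGE E18.5 and CGE E16.5 from left to right. Colour is the log2 intensity minus the mean of that gene over 12 arrays. All 56 genes are highest of their group on CGE E18.5 replicate 2, and CGE E16.5 replicate 1 is highest of its group for 55.

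The question put to each lineage was whether these genes changed between the earlier day and E18.5 (maturation). In MGE cells, 35 of the 51 genes tested were higher at E18.5 than at E14.5 and 0 were lower (limma, Benjamini-Hochberg adjusted p under 0.05 over 8795 genes), where 11.4% of all genes tested were called higher and 9.77% lower. Their median difference was 1.69 (0.30 to 2.82), against -0.06 for all genes tested, and the 3 E18.5 arrays lay above the 3 E14.5 arrays for 47 of 51, where 20.8% of all genes tested did so. In CGE cells, 47 of 51 were higher at E18.5 than at E16.5 and 0 were lower, where 4.49% of all genes tested were called higher and 6.37% lower. The median difference was 2.43 (0.45 to 3.32), against -0.07 for all genes, and the arrays did not overlap for any of the 51, against 9.23% of all genes. These comparisons share no arrays, but both used a spread estimated over all 12 arrays, so their calls are not independent. The genes called in both numbered 34, which is 97.1% of the MGE calls and 72.3% of the CGE calls. By the probe set that stood for each gene, Racgap1 was called in MGE cells alone, 13 genes in CGE cells alone, and Nek2, Bub3 and Pttg1 in neither. In bulk RNA, fewer dividing cells and less mitotic RNA per cell cannot be told apart.

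The filter kept a gene when it was above the level on 3 arrays, and all 51 reached that on E18.5 arrays, while 20 reached it on arrays of the earlier day alone and 11 were above it on no such array. The other 31 therefore entered the counts above only with the help of the E18.5 arrays. Of the 20, 12 were higher in MGE cells and 17 in CGE cells, where 11.4% and 4.49% of all genes tested were called higher. Without any filter, over all 56 genes, 36 were higher in MGE cells (12.1% of 11358 genes were called higher) and 52 in CGE cells (4.07%), and all 56 differences were positive in both lineages. Among the 14 genes above the level on all 12 arrays, 9 were higher in MGE cells (median 1.02) and 13 in CGE cells (median 1.87), against the same 11.4% and 4.49% of all genes tested. With only the 6 CGE arrays in the fit, 7 mitosis genes were called in CGE cells (13.7%), and 75 of all genes were higher (0.853%). With only the 6 MGE arrays in the fit, 45 were called higher in MGE cells (88.2%, against 14.2% of all genes). Which lineage had more calls therefore depended on the arrays that gave the spread. Without MGE E18.5 replicate 3 the MGE count was 8 (15.7%, against 7.87% of all genes), and the median there was 1.36. It was 17 without MGE E18.5 replicate 1, and 16, 21 and 12 without MGE E14.5 replicates 1, 2 and 3. The CGE count was 26 without CGE E16.5 replicate 3. With both CGE arrays that stood apart left out, a choice made after seeing the data, 46 genes were higher in MGE cells (90.2%, against 12.8% of all genes) and 48 in CGE cells (94.1%, against 3.27%).

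Genes that shape the mitotic chromosome were led by Mki67 and Top2a. Mki67 codes for Ki-67, a protein coating mitotic chromosomes and the usual marker of cycling cells. Its levels were 11.57, 11.37 and 11.62 in MGE cells at E18.5, against 9.22, 9.46 and 8.89 at E14.5. In CGE cells Mki67 was 11.54, 12.56 and 11.79 at E18.5, against 10.85, 8.86 and 8.15 at E16.5. The difference was 2.33 ± 0.52 in MGE cells (log2 difference ± SE, 3 arrays per group, limma adjusted p = 0.00862), a 5.03-fold change, and 2.68 ± 0.52 in CGE cells (adjusted p = 0.0103), a 6.39-fold change. Top2a, the topoisomerase that untangles sister chromatids, was 8.54, 7.83 and 8.69 in MGE cells at E18.5, against 6.11, 6.72 and 6.43 at E14.5. In CGE cells Top2a was 9.06, 10.51 and 9.65 at E18.5, against 8.53, 6.32 and 5.88 at E16.5. For both genes every E18.5 array lay above every array of the earlier day, and CGE E16.5 replicate 1 came nearest. Top2a rose by 1.93 ± 0.58 in MGE cells (adjusted p = 0.0348) and by 2.83 ± 0.58 in CGE cells (adjusted p = 0.0121). Of the 7 genes of this group, 4 rose in MGE cells and all 7 in CGE cells. On the probe sets that stood for them, the condensin subunits had the smaller changes. Smc4 rose by 1.03 and 1.24 in MGE and CGE cells and Ncapg by 0.87 and 1.24. Smc2 (0.63 in MGE cells, 1.61 in CGE cells) and Ncapd2 (0.30 and 1.26) passed the test in CGE cells alone. Another Ncapg probe set that passed the filter rose by 2.15 and 2.48. A further Smc2 probe set was called in MGE cells (0.77 ± 0.25, limma adjusted p = 0.0491), and the other Smc2 probe sets were not. Cdca2, which recruits a phosphatase to chromatin at mitotic exit, was 1.23 in MGE cells, not called, and rose by 2.43 in CGE cells. A further Cdca2 probe set that passed the filter rose by 1.95 in MGE cells (limma adjusted p = 0.0352).

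Of the genes for mitotic entry, 6 of 8 tested rose in MGE cells and 7 in CGE cells. Cdk1, the kinase that drives entry into mitosis, was 8.67, 8.33 and 9.18 in MGE cells at E18.5, against 6.82, 7.30 and 7.67 at E14.5. In CGE cells it was 9.44, 10.36 and 9.33 at E18.5, against 8.20, 7.42 and 6.15 at E16.5. The days did not overlap in either lineage. Cdk1 rose by 1.46 ± 0.46 (adjusted p = 0.0414) in MGE cells and by 2.45 ± 0.46 (adjusted p = 0.00852) in CGE cells. Its cyclin partners rose too, Ccna2 by 2.22 and 2.73 and Ccnb2 by 1.96 and 2.20 in MGE and CGE cells, and Cdca3, which triggers the loss of a Cdk1 inhibitor, rose by 1.75 and 2.21. Foxm1, the transcription factor that activates many genes of this list, was 6.81, 6.41 and 7.75 in MGE cells at E18.5, against 5.45, 5.64 and 5.51 at E14.5. In CGE cells Foxm1 was 8.24, 9.55 and 8.54 at E18.5, against 6.62, 6.38 and 5.11 at E16.5. Its E18.5 arrays were all above those of the earlier day, with CGE E18.5 replicate 2 the highest. Foxm1 rose by 1.45 ± 0.44 (adjusted p = 0.0356) in MGE cells and by 2.74 ± 0.44 (adjusted p = 0.00461) in CGE cells. Cks1b, a small subunit that binds cyclin-dependent kinases, was called in CGE cells alone. Cks1b was 10.59, 10.41 and 10.77 in MGE cells at E18.5, against 10.30, 10.43 and 10.11 at E14.5, and these arrays overlapped. In CGE cells it was 11.52, 12.12 and 11.86 at E18.5, against 11.17, 10.75 and 10.55 at E16.5. Its difference was 0.31 ± 0.19 in MGE cells (adjusted p = 0.278), and it rose by 1.01 ± 0.19 in CGE cells (adjusted p = 0.00891), where the days did not overlap, and its relative Cks2 rose by 1.86 and 2.49. Nek2, a centrosomal kinase, was 0.61 and 1.28 and was called in neither lineage. Plk1, a kinase of entry and spindle assembly, was above the level on 1 array, and without a filter it was 0.58 in MGE cells, not called, and rose by 1.34 in CGE cells.

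The chromosomal passenger complex corrects faulty attachments and later steers cytokinesis, and its 4 genes all rose in CGE cells, while 2 of 4, Birc5 and Cdca8, rose in MGE cells. Aurkb, its kinase, was 6.95, 6.75 and 7.53 in MGE cells at E18.5, against 5.46, 6.07 and 6.32 at E14.5. In CGE cells Aurkb was 8.15, 9.77 and 8.08 at E18.5, against 6.90, 5.32 and 5.49 at E16.5. The arrays did not overlap in either lineage, and the difference was 1.13 ± 0.49 in MGE cells (adjusted p = 0.13) and 2.76 ± 0.49 in CGE cells (adjusted p = 0.00727). Cdca8 (Borealin), a targeting subunit, was 10.77, 10.95 and 11.55 in MGE cells at E18.5, against 9.92, 9.79 and 9.34 at E14.5. In CGE cells Cdca8 was 11.50, 12.59 and 11.85 at E18.5, against 10.69, 9.39 and 8.81 at E16.5. The days did not overlap here either. Cdca8 rose by 1.41 ± 0.42 (adjusted p = 0.0354) and 2.35 ± 0.42 (adjusted p = 0.00774) in MGE and CGE cells. Birc5 (survivin) rose by 2.04 and 2.91, and the scaffold Incenp was 0.65 in MGE cells, not called, and rose by 2.15 in CGE cells.

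Kinetochore genes were below the level on every MGE E14.5 array, 0 of 8 genes, against 7, 6 and 7 of 8 on the MGE E18.5 arrays. On the CGE arrays 7, 8 and 8 were above it at E18.5, against 6, 0 and 0 at E16.5, where the 6 belong to the array that stood apart. Of the 7 tested, 6 rose in MGE cells (group median 2.32) and all 7 in CGE cells (2.75). Spc25, a subunit of the NDC80 complex that holds microtubules, was 8.16, 7.67 and 8.98 in MGE cells at E18.5, against 6.14, 6.10 and 5.62 at E14.5. In CGE cells Spc25 was 9.45, 10.14 and 9.62 at E18.5, against 8.13, 6.0 and 5.13 at E16.5. Even the highest earlier array, CGE E16.5 replicate 1, was below every CGE E18.5 array. Spc25 rose by 2.32 ± 0.60 (adjusted p = 0.0171) in MGE cells and by 3.32 ± 0.60 (adjusted p = 0.00772) in CGE cells, although at E16.5 only replicate 1 was above the filter level. Ndc80, of the same complex, was 7.73, 7.85 and 8.47 in MGE cells at E18.5, against 6.17, 6.46 and 6.81 at E14.5. In CGE cells Ndc80 was 8.38, 10.01 and 9.15 at E18.5, against 7.50, 6.32 and 6.06 at E16.5. Its E18.5 arrays lay above the earlier arrays in both lineages. Ndc80 rose by 1.54 ± 0.43 (adjusted p = 0.0245) and 2.55 ± 0.43 (adjusted p = 0.00543). The other subunits were Nuf2, which rose by 2.32 and 2.30, and Spc24, at 1.27 in MGE cells, not called, and 2.43 in CGE cells. Cenpf, a large outer kinetochore protein, rose by 2.82 and 3.16, the kinesin Cenpe by 2.37 and 2.85, and the centromeric histone Cenpa by 1.90 and 2.75. Kntc1, which binds unattached kinetochores, was below the filter, and without it was 0.85 in MGE cells, not called, and rose by 1.94 in CGE cells.

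Spindle checkpoint genes, which delay anaphase until chromosomes are attached, rose in 2 of 5 cases in MGE cells and in 4 of 5 in CGE cells. The kinase Bub1 was 7.11, 6.59 and 6.83 in MGE cells at E18.5, against 4.47, 5.06 and 4.43 at E14.5. In CGE cells Bub1 was 7.64, 8.87 and 7.27 at E18.5, against 6.64, 4.65 and 3.89 at E16.5. The days did not overlap in either lineage. Bub1 rose by 2.19 ± 0.58 (adjusted p = 0.0201) and 2.87 ± 0.58 (adjusted p = 0.012), and it was below the level on every MGE array, so those values are dim. Ttk (Mps1), the kinase that starts the checkpoint signal, was 6.70, 5.98 and 7.33 in MGE cells at E18.5, against 5.27, 5.35 and 5.33 at E14.5. In CGE cells Ttk was 7.73, 9.05 and 8.08 at E18.5, against 6.31, 5.66 and 5.0 at E16.5. MGE E18.5 replicate 2 was the lowest E18.5 array and was above all MGE E14.5 arrays. Ttk rose by 1.36 ± 0.40 (adjusted p = 0.0341) and 2.63 ± 0.40 (adjusted p = 0.0037). Bub3, a partner of Bub1 and Bub1b, moved least of the checkpoint genes, at 0.35 and 0.45, and passed in neither lineage. Bub1b (1.12 in MGE cells, 2.32 in CGE cells) and Mad2l1 (1.10 and 1.78) were called in CGE cells alone.

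For anaphase, Cdc20 and Ube2c rose in both lineages. Cdc20 activates the ubiquitin ligase that ends metaphase, and was 8.07, 8.0 and 9.05 in MGE cells at E18.5, against 6.45, 6.82 and 6.30 at E14.5. In CGE cells Cdc20 was 8.72, 10.29 and 9.30 at E18.5, against 8.47, 6.53 and 6.22 at E16.5. The groups were separate in both lineages. Cdc20 rose by 1.85 ± 0.55 (adjusted p = 0.0333) and 2.36 ± 0.55 (adjusted p = 0.0196). Ube2c, the ubiquitin-conjugating enzyme of that ligase, was 10.33, 10.13 and 11.08 in MGE cells at E18.5, against 8.35, 8.88 and 8.21 at E14.5. In CGE cells Ube2c was 11.30, 12.45 and 11.16 at E18.5, against 10.34, 8.48 and 8.06 at E16.5. All E18.5 arrays were above those of the earlier day. Ube2c rose by 2.04 ± 0.53 (adjusted p = 0.0176) and 2.68 ± 0.53 (adjusted p = 0.0103). Pttg1 (securin), which holds separase in check, had differences as large, 2.39 ± 0.85 and 2.86 ± 0.85, and passed in neither lineage. Its arrays were 9.61, 9.68 and 7.18 in MGE cells at E14.5 and 10.78, 9.22 and 6.89 in CGE cells at E16.5, and its SE was the largest of the 51. A further Pttg1 probe set that passed the filter was called in both lineages. It rose by 2.16 ± 0.58 (limma adjusted p = 0.0239) in MGE cells and by 2.92 ± 0.58 (adjusted p = 0.0154) in CGE cells. Sgo1, which protects cohesion at centromeres, was below the filter, and without it was 1.23 in MGE cells, not called, and rose by 2.04 in CGE cells.

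Among the genes of spindle assembly, 6 of 9 tested rose in MGE cells and all 9 in CGE cells. Nusap1, which bundles spindle microtubules, had the smallest p of the 51 in both lineages. It was 8.90, 8.85 and 9.10 in MGE cells at E18.5, against 6.69, 6.28 and 5.75 at E14.5. In CGE cells Nusap1 was 9.56, 10.66 and 9.62 at E18.5, against 8.23, 6.73 and 6.83 at E16.5. The E18.5 arrays of MGE cells lay close together and far above those of E14.5, which were all below the filter level. Nusap1 rose by 2.71 ± 0.40 in MGE cells (adjusted p = 0.000526) and by 2.68 ± 0.40 in CGE cells (adjusted p = 0.0036). Ckap2l, a spindle protein needed for division of neural progenitors in mice, was 9.26, 9.15 and 9.56 in MGE cells at E18.5, against 6.86, 7.13 and 6.79 at E14.5. In CGE cells Ckap2l was 9.64, 10.85 and 9.88 at E18.5, against 8.58, 7.34 and 6.99 at E16.5. No earlier array reached an E18.5 array in either lineage. Ckap2l rose by 2.40 ± 0.38 (adjusted p = 0.000917) and 2.49 ± 0.38 (adjusted p = 0.00364). The Aurora A activator Tpx2 rose by 2.30 and 2.43 and its spindle partner Tacc3 by 2.07 and 2.12, while Aurka itself was 1.18 in MGE cells, not called, and rose by 2.23 in CGE cells. Spag5 (astrin), which attaches to the spindle and kinetochores, was 1.48 in MGE cells, not called, and rose by 3.21 in CGE cells. Hmmr rose by 1.70 and 2.69 and Ckap2 by 1.60 and 2.25, and Dlgap5 was called in CGE cells alone (1.43 in MGE cells, 2.42 in CGE cells). Hmmr was below the level on every MGE array, so its MGE values are dim.

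The kinesins of mitosis rose in 4 of 5 cases in MGE cells and in all 5 in CGE cells, and 3 of 3 and 2 of 3 cytokinesis genes tested rose. Kif23, the motor of the central spindle, was 7.98, 8.23 and 8.71 in MGE cells at E18.5, against 6.59, 6.78 and 6.49 at E14.5. In CGE cells Kif23 was 8.61, 10.37 and 8.56 at E18.5, against 7.43, 6.07 and 6.73 at E16.5. The days did not overlap, and CGE E18.5 replicate 2 stood well above the rest. Kif23 rose by 1.69 ± 0.45 (adjusted p = 0.0196) and 2.43 ± 0.45 (adjusted p = 0.00821). Kif20a, which carries the passenger complex to the midzone, was 8.36, 8.36 and 8.60 in MGE cells at E18.5, against 7.47, 7.70 and 7.85 at E14.5. In CGE cells Kif20a was 8.93, 10.65 and 9.53 at E18.5, against 8.13, 7.10 and 7.45 at E16.5. The days did not overlap for Kif20a either. Its difference was 0.77 ± 0.36 in MGE cells (adjusted p = 0.163), and it rose by 2.14 ± 0.36 in CGE cells (adjusted p = 0.00594). Kif11, which separates the spindle poles, rose by 2.48 and 2.90, Kif2c by 1.80 and 2.54, and Kif20b by 1.02 and 1.56. Kif4, a chromosome-bound motor, was below the filter, and without it rose by 1.40 and 2.22.

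Cytokinesis genes act at the midzone and the contractile ring. Ect2 activates RhoA there, and was 6.87, 6.95 and 7.70 in MGE cells at E18.5, against 4.71, 5.0 and 4.29 at E14.5. In CGE cells Ect2 was 7.47, 8.82 and 7.80 at E18.5, against 6.56, 4.19 and 3.90 at E16.5. The groups lay apart in both lineages. Ect2 rose by 2.50 ± 0.59 (adjusted p = 0.0109) and 3.15 ± 0.59 (adjusted p = 0.00879). Prc1, the crosslinker of midzone microtubules, was 8.85, 8.14 and 9.07 in MGE cells at E18.5, against 6.50, 6.73 and 5.91 at E14.5. In CGE cells Prc1 was 9.18, 10.46 and 9.32 at E18.5, against 8.79, 6.33 and 6.03 at E16.5. The CGE E16.5 arrays had the widest spread, and none reached the E18.5 arrays. Prc1 rose by 2.31 ± 0.61 (adjusted p = 0.02) and 2.60 ± 0.61 (adjusted p = 0.0209). Racgap1, the partner of Kif23, rose by 1.42 ± 0.35 in MGE cells (adjusted p = 0.0143) and was 1.14 ± 0.35 in CGE cells (adjusted p = 0.0612). Anln, which binds the ring, was above the level on 1 array, and without a filter it rose by 1.33 and 1.78 in MGE and CGE cells.

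**Figure D2:**
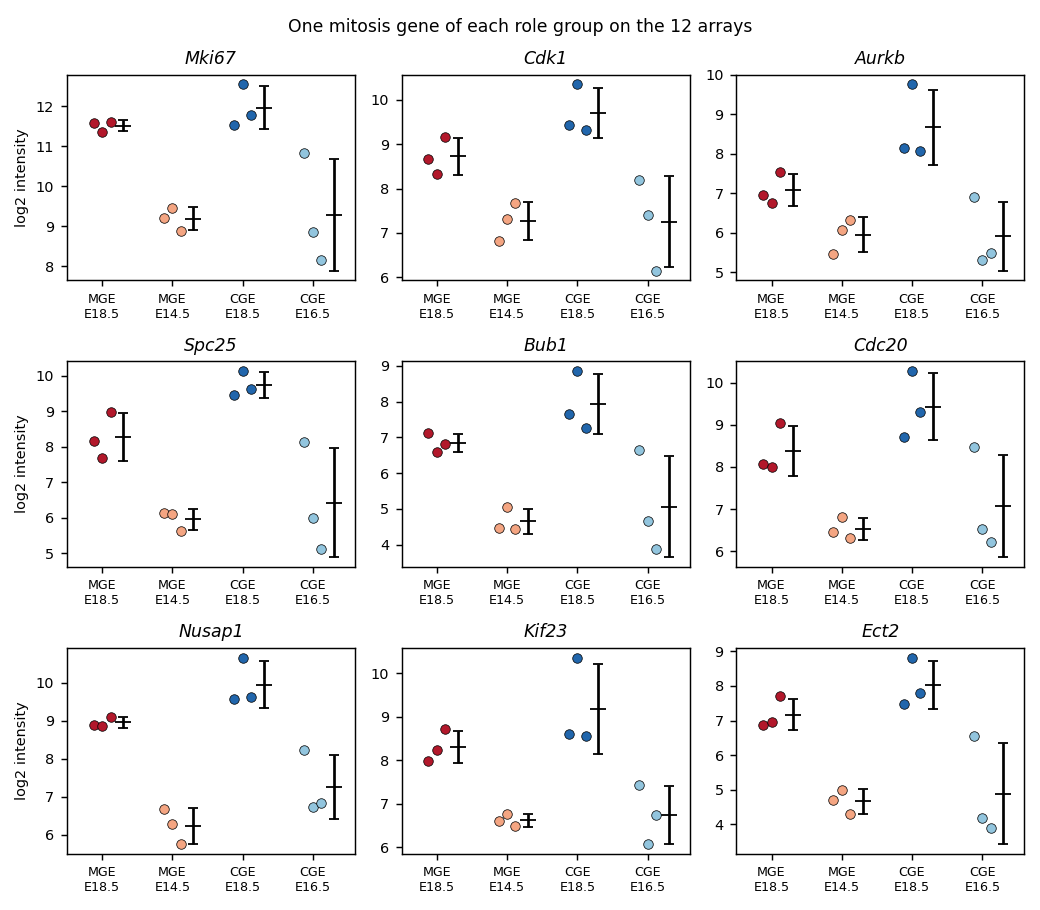
Log2 intensity of a gene from each role group on the 12 arrays (points), with the mean and SD of 3 arrays beside them, for MGE E18.5, MGE E14.5, CGE E18.5 and CGE E16.5 from left to right. The vertical axes differ between genes and do not start at 0. In each panel the 3 E18.5 points lie above those of the earlier day of the same lineage, and CGE E16.5 replicate 1 lies above the other 2 arrays of its group, as for Mki67 at 10.85, against 8.86 and 8.15.

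The late comparison set both lineages against each other on a shared day, E18.5. All 51 differences (MGE minus CGE) were negative, with a median of -0.98 (-2.14 to -0.16) against -0.02 for all genes tested. Of the 51, 11 were lower in MGE cells and 0 higher, where 9.85% of all genes tested were called lower and 13% higher. Without a filter 14 of all 56 genes were lower, with Kif4 (-1.22), Sgo1 (-1.44) and Kntc1 (-1.24) added, where 9.34% of 11358 genes were called lower. The MGE arrays then lay below the CGE arrays for 32 of 56, as 18.1% of all genes did. Spag5 was at 5.89, 6.62 and 7.66 on the MGE arrays, against 8.21, 9.88 and 8.50 on the CGE arrays (-2.14 ± 0.57, limma adjusted p = 0.0183), and 1 of these 3 MGE arrays was above the filter level. Cks1b had the smallest p, at 10.59, 10.41 and 10.77 on the MGE arrays, against 11.52, 12.12 and 11.86 on the CGE arrays (-1.24 ± 0.19, adjusted p = 0.000575). Foxm1 (-1.79 ± 0.44, adjusted p = 0.0118), Ttk (-1.61 ± 0.40, adjusted p = 0.0132) and Aurkb (-1.59 ± 0.49, adjusted p = 0.0359) were lower as well.

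Aurka was 6.99, 6.78 and 7.28 in MGE cells at E18.5, against 7.70, 9.68 and 8.58 in CGE cells (-1.64 ± 0.45, adjusted p = 0.0203). Bub3 was 9.94, 9.79 and 10.16 in MGE cells at E18.5, against 10.52, 10.83 and 10.36 in CGE cells (-0.61 ± 0.14, adjusted p = 0.00996). Neither gene overlapped between lineages. The others called were Cdca2 (-1.76), Kif20a (-1.27), Racgap1 (-1.11) and Ncapd2 (-1.08), so the called genes came from the chromosome, entry, passenger, checkpoint, spindle, kinesin and cytokinesis groups. Spag5, Foxm1, Ttk, Aurkb, Aurka and Cdca2 passed the filter only with the help of the CGE E18.5 arrays, where they were high. Mki67 was -0.45 ± 0.52, with a 95% interval of -1.59 to 0.70, and its groups overlapped. Ccnb2 was -0.16 and was the smallest difference. Without CGE E18.5 replicate 2 the median was -0.58 and 3 genes were called (5.88%, against 8.29% of all genes called lower). Without MGE E18.5 replicate 1 there were 4 (7.84%, against 6.91%) and without replicate 2 there were 3 (5.88%, against 7.54%), so with any of these 3 arrays left out the share called was near that of all genes. Without CGE E16.5 replicate 1, which enters only through the shared spread, there were 18 (35.3%, against 10.2%). With both CGE arrays that stood apart left out the median was -0.58 and 11 genes were called (21.6%, against 9.03%), with Top2a and Spc25 gained and Cdca2 and Racgap1 lost.

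In the early pairing, MGE cells of E14.5 were set beside CGE cells of E16.5, and lineage and day cannot be told apart. Of the 51 genes, 0 were higher and 2 lower in MGE cells, where 4.16% of all genes tested were called higher and 5.9% lower, and the median difference was -0.34 against -0.02 for all genes. Racgap1 was 6.10, 6.34 and 5.87 in MGE cells at E14.5, against 7.82, 7.39 and 7.28 in CGE cells at E16.5 (-1.39 ± 0.35, adjusted p = 0.0273). Bub3 was 9.62, 9.55 and 9.68 in MGE cells at E14.5, against 10.21, 10.22 and 9.95 in CGE cells of the later day (-0.51 ± 0.14, adjusted p = 0.0457). These groups did not overlap, nor did those of Cks1b (-0.54) and Nusap1 (-1.03), which were not called, and 18.9% of all genes lay apart in this direction. Mki67 was -0.10 ± 0.52 and Cdk1 0.01 ± 0.46. Without CGE E16.5 replicate 1 the median was 0.20, so the direction of the early median rests on that array. Neither Racgap1 nor Bub3 was called without CGE E16.5 replicate 1 or 2, or without any single MGE E14.5 array.

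Whether the rise itself differed between lineages was tested by subtracting the CGE change from the MGE change, which is also the shift of the lineage difference between the early and the late pairing. The result was negative for 48 of 51 genes, with a median of -0.68 against 0.02 for all genes, and limma called 0 of them, where 8.64% of all genes tested were called. At an unadjusted p under 0.05 there were 5, where 22.3% of all genes passed: Aurkb (-1.64 ± 0.69, adjusted p = 0.186), Incenp (-1.50 ± 0.62, adjusted p = 0.178), Kif20a (-1.38 ± 0.51, adjusted p = 0.133), Ttk (-1.27 ± 0.57, adjusted p = 0.216) and Cks1b (-0.70 ± 0.27, adjusted p = 0.143). The smaller number of calls in MGE cells is therefore not shown to be a smaller rise. The days between collections also differ, from E14.5 to E18.5 in MGE cells and from E16.5 to E18.5 in CGE cells. Without CGE E16.5 replicate 1 there were 4 calls, Birc5, Incenp, Spc24 and Spc25 (7.84%, against 2.23% of all genes called lower). With both CGE arrays left out there were 3, Aurkb, Incenp and Kif20a (5.88%, against 2.26%). All of these were lower.

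**Figure D3:**
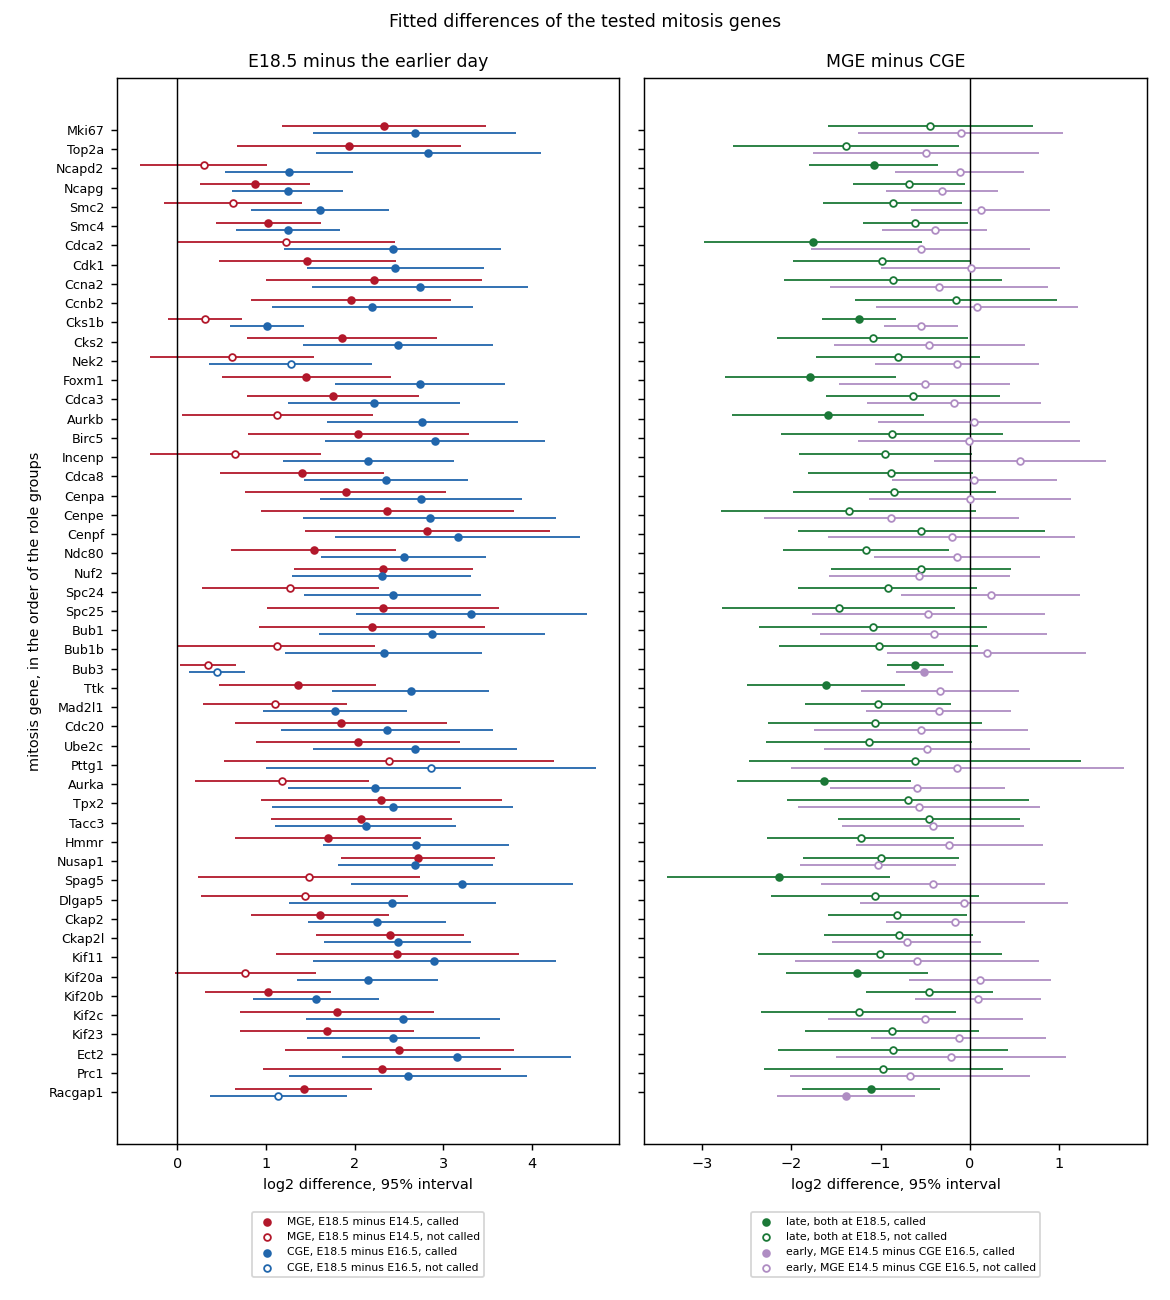
Fitted log2 differences with 95% intervals for the 51 genes tested, filled where the adjusted p was under 0.05. Left, E18.5 minus the earlier day, in MGE cells (red) above CGE cells (blue), where all points lie right of 0. Right, MGE minus CGE, at E18.5 (green) above the early pairing (purple), where all green points lie left of 0 and 11 are filled.

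Other probe sets of the same genes that passed the filter gave the same direction in both maturation comparisons and at E18.5. Of 57 further probe sets, 31 passed the filter, over 24 genes, and all 31 shared the sign of the main probe set in both maturation comparisons and at E18.5, and 25 in the early comparison. Of these 31, 19 were called higher in MGE cells, 26 higher in CGE cells, and 7 lower in MGE than in CGE cells at E18.5. With a single probe set per gene, 11.4%, 4.49% and 9.85% of all genes tested were called so. Below the filter, probe sets of Smc2 (-0.37), Spc25 (-0.12) and Ncapd2 (-0.10) had the opposite sign in MGE maturation, and the rest shared it.

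The members moved together across arrays. Each gene correlated with the mean of the other members at r = 0.78 to 0.99 over the 12 arrays (median 0.97), lowest for Bub3 (0.78) and Cks1b (0.83), as a description, since the arrays form 4 groups and share a day and lineage. The genes outside the list whose values followed the mean of the mitosis genes most closely over the 12 arrays were Sgo2a (r = 0.99), Kif18b, Rrm2, Cep55, Hmgb2, Pbk, Aspm, H2bc22, Zfp367 and Mcm3 (0.98).

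Other genes of the division cycle showed how far the pattern reached. Among 50 further mitotic genes, 30 were tested, and 11 rose in MGE cells (11.4% of all genes did) and 20 in CGE cells (4.49%), with 0 lower in either. Aspm, a spindle pole protein of dividing neural progenitors, rose by 2.92 in MGE cells and 3.13 in CGE cells, Cep55, which acts in abscission, by 2.34 and 3.11, and Knl1, a kinetochore scaffold, by 2.42 and 2.88. These named genes were each above the filter level on 0 MGE E14.5 arrays and 1 CGE E16.5 array. They and others of the 30 passed the filter only with the help of E18.5 arrays, where they were high. At E18.5, 11 of the 30 were lower in MGE than in CGE cells (9.85% of all genes were), led by Psrc1 (-1.90), Arhgap11a (-1.62) and Shcbp1 (-1.48). Psrc1 and Shcbp1 passed the filter only with the help of the CGE E18.5 arrays. Genes of DNA replication had smaller medians, with 18 of 25 tested, of which 4 rose in MGE cells (median 0.60) and 14 in CGE cells (median 1.21), set beside the same 11.4% and 4.49% of all genes. They included Cdt1, which licenses origins, at 1.53 in MGE cells and 1.93 in CGE cells, and Gmnn, its inhibitor geminin, at 0.88 in MGE cells, not called, and 2.74 in CGE cells, and 6 of 18 were lower in MGE than in CGE cells at E18.5 (9.85% of all genes), led by Gmnn (-1.84). Cdt1 and Gmnn also passed the filter only with the help of E18.5 arrays.

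Genes of G1 and of cell cycle exit went both ways. Cyclin D1, Ccnd1, which starts the cycle in response to growth signals, averaged 10.82 ± 0.31 in MGE cells at E18.5 and 8.92 ± 0.18 at E14.5, and 7.65 ± 0.30 in CGE cells at E18.5 and 7.43 ± 0.17 at E16.5 (SD, n = 3 each). It rose in MGE cells by 1.90 (adjusted p = 2.6e-05) and was 3.17 higher in MGE than in CGE cells at E18.5, the opposite of the mitosis genes there. Ccnd3 averaged 7.58 ± 0.26 and 5.91 ± 0.08 in MGE cells at E18.5 and E14.5, and 5.87 ± 0.16 and 6.02 ± 0.11 in CGE cells at E18.5 and E16.5, and was above the filter level on the MGE E18.5 arrays alone. Ccnd2 rose in both lineages, by 0.64 in MGE cells and 1.14 in CGE cells, and was 1.22 lower in MGE than in CGE cells at E18.5. The inhibitor Cdkn2c (p18) rose by 2.02 and 2.37 in MGE and CGE cells, and Cdkn1c (p57), which holds cells out of the cycle, fell by 1.73 in MGE cells. Cdkn2c was above the filter level on E18.5 arrays alone and was tested only through them. The inhibitor Cdkn1b (p27) rose by 0.70 in MGE cells.

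Oligodendrocyte precursor, progenitor and microglial markers also differed between days. Of all genes tested, 11.4% were called higher and 9.77% lower in MGE cells, and 4.49% higher and 6.37% lower in CGE cells. The 6 oligodendrocyte precursor genes (Pdgfra, Cspg4, Olig1, Olig2, Sox10, Nkx2-2) were all above the level on every MGE E18.5 array, with array means of 11 to 11.7, against 6.83 to 7.19 on MGE E14.5 arrays, and all 6 rose in MGE cells. On CGE arrays 0 of the 6 were above it, with means of 5.16 to 5.58 at E18.5, against 4.86 to 5.26 at E16.5. Olig2, Sox10 and Nkx2-2 were above the level on the MGE E18.5 arrays alone and were tested only through them. Cspg4 also passed the filter only with the help of those arrays. The 8 radial glia and neural progenitor genes in the table averaged 10.20 to 10.48 on MGE E18.5 arrays, against 8.39 to 9.01 at E14.5, and 9.73 to 10.3 on CGE E18.5 arrays, against 9.05 to 9.43 at E16.5. Of these 8, 6 rose in MGE cells, led by Slc1a3 (3.81), Hes5 (2.95) and Sox9 (2.82), and 3 in CGE cells, Sox9 (1.28), Slc1a3 (0.98) and Fabp7 (0.74). Both microglial genes in the table (Csf1r, Tyrobp) rose in both lineages, and their mean was 6.78 to 7.93 on MGE E18.5 arrays, against 4.18 to 5.08 at E14.5, and 7.42 to 8.28 on CGE E18.5 arrays, against 4.90 to 6.49 at E16.5. Csf1r, Tyrobp and Slc1a3 were above the level on E18.5 arrays alone and were tested only through them. The pallial progenitor genes Eomes and Neurog2 were above the level on 0 arrays. The 4 pallial glutamatergic genes in the table averaged 5.66 to 6.50 on MGE E18.5 arrays, against 5.99 to 7.13 at E14.5, and 5.03 to 6.08 on CGE E18.5 arrays, against 6.28 to 7.03 at E16.5, and neither of the 2 tested was called (Neurod6 -1.36 and -1.41 in MGE and CGE cells). The 4 immature neuron genes averaged 12.15 in MGE cells at E18.5 and 12.72 at E14.5, and 12.60 in CGE cells at E18.5 and 12.74 at E16.5, and 3 of them fell in MGE cells, Stmn2 by 1.25. The GABAergic mean was 11.25 to 11.59 on MGE E18.5 arrays, against 11.95 to 12.02 at E14.5, and 4 of 5 of these genes fell in MGE cells and 0 in CGE cells. The part of these markers in the differences of the mitosis genes was not tested.

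**Figure D4:**
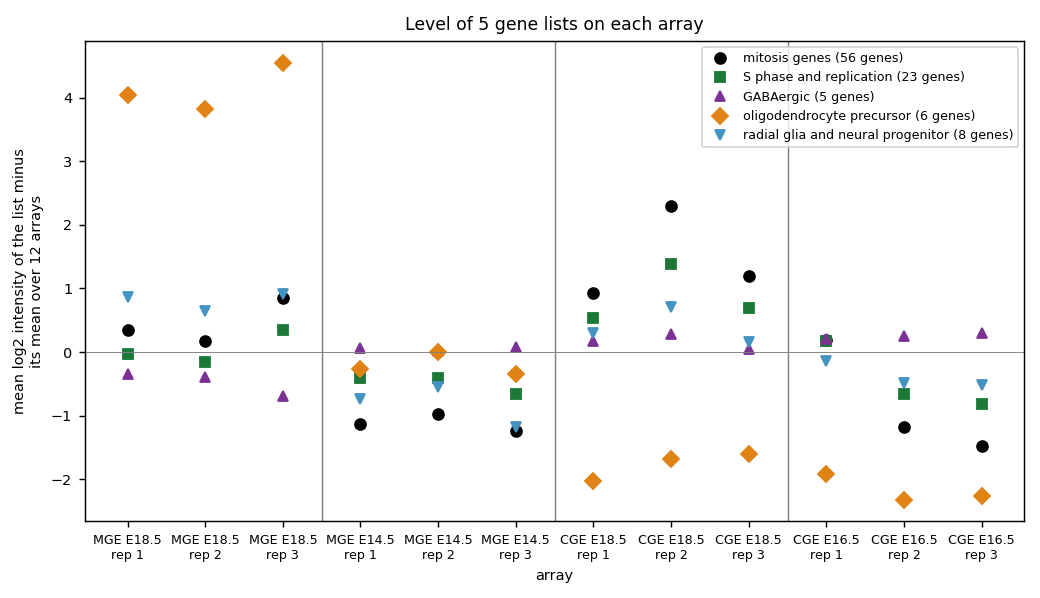
Mean log2 intensity of 5 gene lists on each array, relative to the mean of that list over the 12 arrays, for MGE E18.5, MGE E14.5, CGE E18.5 and CGE E16.5 from left to right. Replicates follow their numbers within each group. Mitosis genes (circles) and replication genes (squares) are highest on the CGE E18.5 arrays, whereas oligodendrocyte precursor genes (diamonds) are high on the MGE E18.5 arrays and low on all 6 CGE arrays.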

How the data were processed

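Sorted cells of 4 groups were read with 3 arrays each. Per the labels and methods, RNA was extracted with an RNeasy kit, amplified with the NuGEN Ovation Pico system and hybridised, and the authors background-corrected and normalised the arrays in Bioconductor. The deposited values are on a log2 scale (3.23 to 14.97, array medians 7.75 to 7.81). MAS5 is named, without a version, in the submitters' processing notes, so the exact normalisation is not settled. Detection calls were not used, and a dim value cannot be separated from background, which can shrink a difference. The number of arrays limits the precision.

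Of 27094 probe sets, 34 were controls and 22339 had a single symbol in the platform annotation, over 11358 symbols (571 had several and 4150 none). Probe sets above the 40th percentile of their own array (7.10 to 7.17) on at least 3 of 12 arrays were kept (16008), and the brightest stood for its gene, giving 8795 genes. Limma 3.58.1 in R 4.3.3 was fitted with a mean per group over 12 arrays (8 residual degrees of freedom, 3.60 added by moderation), tests were two-sided, and calls required an adjusted p under 0.05 (Benjamini-Hochberg over 8795 genes). The fit was tested on simulated data. Replicate arrays correlated at r = 0.97 to 0.99 and none were identical. Values on every array are given for Mki67, Top2a, Cdk1 and the 2 genes of each role group with the smallest p, and for a few others chosen after their values were seen (Aurka, Bub3, Pttg1, Racgap1, Spag5). Of the other lists, up to 3 called genes per comparison with the largest difference could be named, and the 10 genes outside the list most correlated with the mean of the members. The members and gene lists were chosen with earlier results of these data known. Promoter motifs were counted as exact letters.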

Additional observations from a re-analysis of the deposited data

Results flagged for a closer look

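Of the further cell cycle genes, 5 differed between lineages in their change to E18.5 by the test of that difference itself (MGE maturation minus CGE maturation, limma with Benjamini-Hochberg adjustment). They are named because they passed, and 8.64% of all genes tested passed it too, so the count does not set these lists apart. Ccnd3 was 1.82 ± 0.20 (SE, adjusted p = 0.000122) and Ccnd1 1.69 ± 0.27 (adjusted p = 0.002), which had the larger rise in MGE cells. Ccnd3 averaged 7.58 and 5.91 in MGE cells at E18.5 and E14.5, and 5.87 and 6.02 in CGE cells at E18.5 and E16.5. It was above the filter level on the MGE E18.5 arrays alone, and was tested only through them. Cdkn1c was -1.59 ± 0.26 (adjusted p = 0.00209), with a fall in MGE cells and 8.39, 10.12, 7.99 and 8.13 on average in MGE E18.5, MGE E14.5, CGE E18.5 and CGE E16.5. Myc was -1.11 ± 0.20 (adjusted p = 0.00495), lower at E18.5 in MGE cells and higher in CGE cells, with means of 9.15, 9.74, 8.94 and 8.42 in the same order. Cenph, a kinetochore gene outside the mitosis list, was -0.99 ± 0.26 (adjusted p = 0.0319), with the larger rise in CGE cells (1.73) than in MGE cells (0.73). Of the 51 mitosis genes, 0 passed this test in limma, with 5 at an unadjusted p under 0.05 (22.3% of all genes were). With array weights 2 passed, both lower (3.92%, against 2.93% of all genes called lower).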

How the results depend on the processing

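Results were recomputed under up to 24 other settings, of which 12 left out an array each. The 2-fold minimum gives no median, and fitting only the arrays compared gives no change of the lineage difference. Over the 5 comparisons, the mitosis genes of each comparison kept their direction and their call in 970 of 1155 values for MGE maturation, 1052 of 1155 for CGE maturation, 1086 of 1155 for the late and 1135 of 1155 for the early lineage difference, and 1094 of 1104 for its change, and no called gene changed sign. The median of the early lineage difference, -0.34, turned to 0.20 without CGE E16.5 replicate 1 and, after seeing the data, with both CGE arrays that stood apart left out (-0.67 to 0.20 with an array left out). The cause of these changes was not tested.

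The 2 genes called lower in the early lineage difference became 1 with no filter, with a stricter filter, with arrays centred on their median, with the replicate block, with a 2-fold minimum and with both CGE arrays left out, and 0 with MGE E14.5 replicates 1 and 2 averaged into 1, which leaves fewer samples. The 11 genes lower at E18.5 were 21.6% of those tested, against 9.85% of all genes. They became 4 of 33 with the stricter filter, which tests fewer genes (12.1%, against 10.3%). With the replicate block they became 7 (13.7%, against 9.26%). Averaging MGE E14.5 replicates 1 and 2 turned the 35 MGE maturation calls into 20 (39.2%, against 8.56% of all genes). Fitting only the 6 arrays of CGE cells turned 47 CGE calls into 7 (13.7%, against 0.853%). Fitting only the 6 arrays of MGE cells turned the 35 MGE calls into 45 (88.2%, against 14.2%), and array weights gave 47 (92.2%, against 17.6%). The change of the lineage difference, with 0 calls, had 2 lower with array weights (3.92%, against 2.93%). It had 3 lower with both CGE arrays left out (5.88%, against 2.26%).

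With an array left out the early count was 0 to 2 (3.92%, against 4.96% to 6.61% of all genes). The late count was 3 (5.88%, against 7.54% or 8.29%) to 18 (35.3%, against 10.2%). The MGE maturation count was 8 (15.7%, against 7.87%) to 40 (78.4%, against 11.6%). The CGE maturation count was 26 (51%, against 1.69%) to 49 (96.1%, against 4.64% or 5.03%). The count for the change was 0 to 4 (7.84%, against 2.23%). The MGE count was 8 without MGE E18.5 replicate 3 and 17 (33.3%, against 9.19%) without MGE E18.5 replicate 1. It was 12 (23.5%, against 9.02%), 16 (31.4%, against 8.63%) and 21 (41.2%, against 8.43%) without MGE E14.5 replicates 3, 1 and 2. The CGE count was 26 without CGE E16.5 replicate 3. Replicate numbers did not pair the arrays: arrays with the same number correlated at -0.17 to 0.28 in their deviations from the group means, other pairs at -0.23 to 0.30, and 5 of 12 arrays were closest to their own number. The replicate block changed no other count past 1.5 times.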
